A study of Homo sapiens with 12 samples.

Results

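The 10 genes followed here are used as markers of drug-tolerant or stem-like cancer cells: the aldehyde dehydrogenases ALDH1A1, ALDH1A2, ALDH1A3, ALDH3A1, ALDH3A2 and ALDH3B1 and the surface proteins PROM1 (CD133), CD24, CD44 and NGFR. They were taken from a list of gene names, with no threshold on a measured value, but the list was chosen with earlier results of these data known. All 10 were among the 19775 genes with a probe set of a single gene symbol. Each gene was read from its brightest probe set by the mean over 12 arrays, and its other probe sets served as a check. The study profiled PC9 and HCC827, human lung adenocarcinoma cell lines whose EGFR carries an activating mutation, after 8 days with erlotinib, an EGFR kinase inhibitor, or with DMSO, its solvent. The groups were PC9 with 2 micromolar erlotinib, PC9 with DMSO, HCC827 with 2 micromolar erlotinib and HCC827 with DMSO, with 3 arrays each. All were grown in RPMI with 10% serum, and the medium was renewed after day 4. Per the labels, 8000000 cells were plated for erlotinib and 1500000 for DMSO, so drug and plating cannot be told apart, and the labels and the series description disagree on the vessels. The cells harvested under erlotinib are those left after 8 days of drug, and each of the 2 lines descends from a single tumour. The labels do not say that the replicates were separate cultures, so the p-values measure the spread between these samples, which may be technical.

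Aldehyde dehydrogenases oxidise aldehydes to acids. The ALDH1A enzymes make retinoic acid, which acts through nuclear receptors, from retinaldehyde, and are the activity usually read by flow-cytometric ALDH assays, whereas class 3 enzymes act on fatty and aromatic aldehydes. CD44 is a receptor for hyaluronan whose transcript is spliced in many forms, CD24 is a small heavily glycosylated surface protein held by a lipid anchor, PROM1 is a pentaspan membrane protein, and NGFR is the low-affinity neurotrophin receptor p75.

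Promoters of 4 of the genes are shown to set those that changed beside one with a low signal: CD44 and CD24, which moved in opposite directions in PC9, ALDH1A3, the ALDH1A gene with a clear signal, and ALDH1A1, which stayed under the filter level. RefSeq promoters (GRCh38.p14, 250 bases before to 50 after a start of the gene) matched 8 of the 10 genes, and ALDH3A1 and NGFR had no entry. CD24 had 3 windows for different transcript starts, and the one shown, the first listed, lies inside the annotated gene (chromosome 6, 106969831 to 106976855). Capitals mark GC boxes (GGGCGG) and CCAAT boxes (CCAAT) on either strand, and neighbouring GC boxes may share letters. The 4 windows lie, in the order given, at chr11:35138921-35139220 on the plus strand, chr6:106975578-106975877 on the minus strand, chr15:100879581-100879880 on the plus strand and chr9:72953004-72953303 on the minus strand, each written 5′ to 3′ on the strand of the gene.
CD44: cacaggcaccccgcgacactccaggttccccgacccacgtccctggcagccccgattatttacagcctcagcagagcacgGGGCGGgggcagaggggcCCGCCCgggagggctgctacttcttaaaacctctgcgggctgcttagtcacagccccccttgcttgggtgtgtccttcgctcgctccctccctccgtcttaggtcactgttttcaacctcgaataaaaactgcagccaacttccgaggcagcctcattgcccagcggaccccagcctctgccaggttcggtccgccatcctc
CD24: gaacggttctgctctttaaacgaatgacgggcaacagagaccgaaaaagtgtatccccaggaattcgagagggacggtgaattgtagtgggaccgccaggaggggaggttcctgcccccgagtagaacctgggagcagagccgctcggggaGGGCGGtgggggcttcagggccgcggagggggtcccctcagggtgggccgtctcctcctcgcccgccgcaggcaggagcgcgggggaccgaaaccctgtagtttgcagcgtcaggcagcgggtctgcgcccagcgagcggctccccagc
ALDH1A3: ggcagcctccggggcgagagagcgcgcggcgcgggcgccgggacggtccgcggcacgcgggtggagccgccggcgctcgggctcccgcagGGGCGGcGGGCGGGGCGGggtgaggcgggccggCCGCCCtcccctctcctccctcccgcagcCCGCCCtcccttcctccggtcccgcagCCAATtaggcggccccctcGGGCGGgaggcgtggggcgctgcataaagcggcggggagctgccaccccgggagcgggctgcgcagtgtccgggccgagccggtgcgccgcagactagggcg
ALDH1A1: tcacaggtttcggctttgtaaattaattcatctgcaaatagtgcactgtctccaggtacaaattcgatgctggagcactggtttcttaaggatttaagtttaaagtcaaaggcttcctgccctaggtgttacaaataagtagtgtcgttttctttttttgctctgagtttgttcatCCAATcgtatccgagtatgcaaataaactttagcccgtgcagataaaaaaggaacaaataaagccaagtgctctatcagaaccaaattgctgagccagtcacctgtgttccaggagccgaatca
The CD44 window holds 2 GC boxes, that of CD24 holds 1, and that of ALDH1A3 holds 6 GC boxes and 1 CCAAT box. The ALDH1A1 window has no GC box, 1 CCAAT box and a GC content of 40.3%, against 81.7% in the ALDH1A3 window and a median of 58.7% over 35116 promoters. Of all those promoters, 45.0% hold a GC box and 34.6% a CCAAT box. Among the matched genes not shown, ALDH1A2 and PROM1 also had brightest probe sets under the filter level. Their windows had a GC content of 74.0% and 60.7%, with 2 GC boxes for ALDH1A2 and none for PROM1. ALDH3A2 (55.0%) and ALDH3B1 (63.7%) passed the filter and had no GC box. A relation of these letters to signal was not tested. These are matches of letters in one window, and no binding was measured here.

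The values were the authors' MAS5 signals on a linear scale, with array medians of 11.1 to 14.5. Arrays of the same group correlated at 0.993 to 0.997 (Pearson's r of log2 signals). DUSP6, an ERK-induced phosphatase used to check the drug labels, was at 68.1 ± 7.23 in PC9 with erlotinib, against 1358 ± 272 with DMSO, and at 366 ± 42.3 in HCC827 with erlotinib, against 1252 ± 68.4 with DMSO (SD, n = 3). Of 11 listed epithelial markers, all 11 passed the filter in at least 1 group. Their summed signals were 17763 to 20260 in PC9 with erlotinib, 16927 to 18431 in PC9 with DMSO, 18276 to 19659 in HCC827 with erlotinib and 18774 to 18872 in HCC827 with DMSO. The sums hide low members. NAPSA averaged 10 in PC9 with erlotinib, against 3.93 with DMSO, and 59.7 in HCC827 with erlotinib, against 252 with DMSO. NKX2-1 averaged 47.3 in PC9 with erlotinib, against 14.1 with DMSO, and 1934 in HCC827 with erlotinib, against 2088 with DMSO. Among 10 measured markers of blood, endothelial and stromal cells, 3 passed the filter (PECAM1, CDH5 and LUM). The sums of the 10 were 750 to 852 in PC9 with erlotinib, 923 to 1004 in PC9 with DMSO, 213 to 231 in HCC827 with erlotinib and 32.2 to 34.3 in HCC827 with DMSO. These markers moved in different directions: LUM, a stromal proteoglycan, averaged 104 in PC9 with erlotinib, against 1.4 with DMSO, and 183 in HCC827 with erlotinib, against 6 with DMSO. In PC9, endothelial CDH5 averaged 178 with erlotinib, against 105 with DMSO, and PECAM1 506 with erlotinib, against 835 with DMSO. PTPRC did not exceed 5.5 and CD3E did not exceed 1.5 on any array, and the part of these markers in the results was not tested. The actin 3′/5′ signal ratio, which grows as RNA degrades, was 3.03 ± 0.598 in HCC827 with erlotinib, against 2.17 ± 0.0563 with DMSO (exact permutation test, two-sided, p = 0.1, the smallest that 3 against 3 arrays allow). In PC9 the ratio was 2.22 ± 0.271 under erlotinib, against 2.18 ± 0.152 under DMSO (p = 1 by the same exact test). For the 6 marker genes past the filter, calls in HCC827 that were lost or gained with this ratio in the fit are named with each gene. Genes of the wider lists were not all followed this way.

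In PC9, ALDH3B1 and CD24 rose most, ALDH3A1 and ALDH1A3 rose less, and CD44 and ALDH3A2 fell. In HCC827, ALDH1A3, ALDH3B1 and CD24 rose, ALDH3A2 fell, and ALDH3A1 and CD44 did not pass the test. Of the 10 genes, 6 had a mean signal of at least 13, the median of the table, in at least 1 group, and only those entered the test: limma on log2(signal + 8), with Benjamini-Hochberg adjustment over 13183 genes and a threshold of 0.05. Of these 6 genes, 4 rose and 2 fell in PC9, where 64.7% of all genes tested were called, 36.3% higher and 28.3% lower. In HCC827, 3 rose, 1 fell and 2 were not called, where 51.7% of all genes were called, 32.2% higher and 19.5% lower. After centring each array on its median, the background was 27% higher and 38.2% lower in PC9, and 24.6% higher and 24.3% lower in HCC827. With shares this large, the counts over 6 genes say little by themselves. Read from the brightest probe set, 1 of the 6 genes reached a change of at least 2-fold in PC9 (ALDH3B1) and 0 in HCC827. Of all genes, 13% and 7.23% did. Some other probe sets of CD44 and CD24 changed by more than 2-fold in PC9, as given below. The erlotinib and DMSO arrays did not overlap for 6 of the 6 genes in PC9 and 5 of 6 in HCC827, against 64.9% and 62.1% of all genes. The median change of the 6 genes was 0.42 in PC9 and 0.29 in HCC827 on the log2 scale, against medians over all genes tested of 0.05 and 0.07. RNA of whole cultures was measured, so fewer cells with a transcript and less transcript per cell cannot be told apart.

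**Figure D1:**
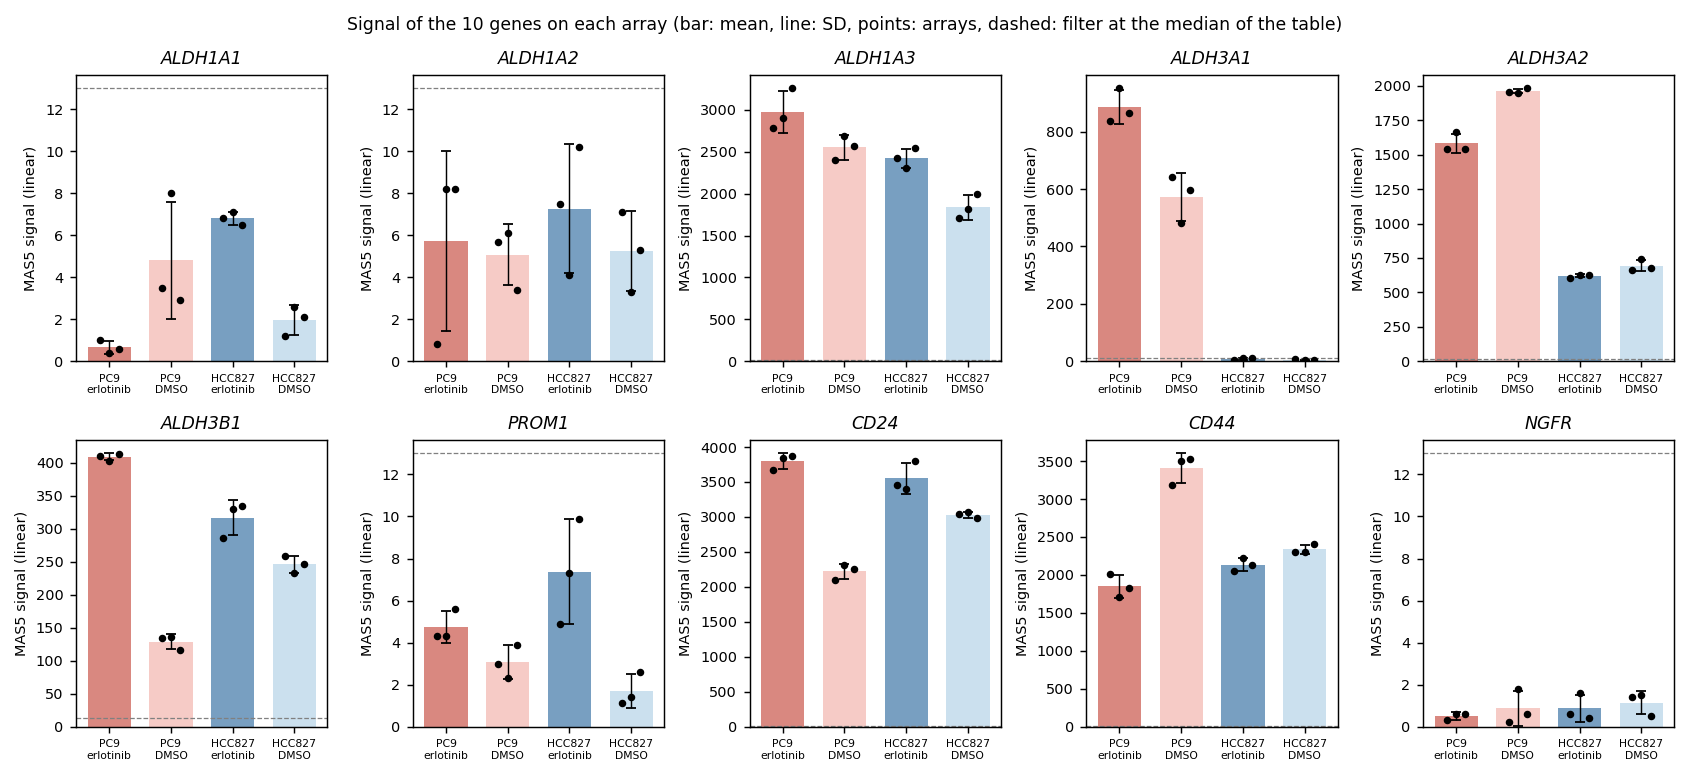
MAS5 signal (linear scale) of the 10 genes on each of the 12 arrays: points are arrays, bars are group means and lines are SDs of 3 arrays. The dashed line is the filter at 13: ALDH1A1, ALDH1A2, PROM1 and NGFR lie below it on every array, while CD44 with erlotinib in PC9 (1711 to 2009) lies below all 3 DMSO arrays (3185 to 3530).

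ALDH1A3, which makes retinoic acid, was the one ALDH1A gene that passed the filter (probe set 203180_at). Its signal in PC9 was 2776.9, 2897.1 and 3257.5 with erlotinib, against 2398.5, 2691.5 and 2569.6 with DMSO. In HCC827 it was 2418.9, 2308.9 and 2539.3 with erlotinib, against 1704.1, 1812.6 and 1999.8 with DMSO. All erlotinib arrays lay above the DMSO arrays of their line. The log2 change was 0.22 ± 0.07 (SE) in PC9 (adjusted p = 0.00986) and 0.40 ± 0.07 in HCC827 (adjusted p = 1.35e-04). The rise in HCC827 was called under all 25 alternatives, at 0.32 to 0.46. In PC9 the call was lost with each array centred on its median (0.07, adjusted p = 0.401) and without PC9 erlotinib replicate 3 (0.15, adjusted p = 0.0678), in a range of adjusted p from 1.46e-05 to 0.401 over the alternatives. The dimmer probe set of ALDH1A3, 1558649_at, was at 98.1 ± 8.47 in PC9 with erlotinib, against 50.6 ± 3.11 with DMSO (log2 change 0.85, adjusted p = 1.18e-05). In HCC827 that probe set, tested singly, was not called (0.25, adjusted p = 0.100).

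ALDH1A1 and ALDH1A2, the other retinaldehyde dehydrogenases, had brightest probe sets under the filter level on every array. The single probe set of ALDH1A1 (212224_at) read 1, 0.4 and 0.6 in PC9 with erlotinib, against 3.5, 8 and 2.9 with DMSO. In HCC827 it read 6.8, 7.1 and 6.5 with erlotinib, against 1.2, 2.6 and 2.1 with DMSO. These values do not overlap within either line, but the gene ranked at a percentile of 6.72 to 43.0 of the array, and no detection calls were at hand to tell signal from background. In a fit without the filter, ALDH1A1 fell by 0.54 in PC9 (adjusted p = 0.0032) and its log2 change in HCC827 was 0.57 (adjusted p = 0.0031), both on signals under 10. ALDH1A2 lay between 0.8 and 10.2 with its brightest probe set. Its other probe set, 207016_s_at, read 13.3, 6.3 and 16 in PC9 with erlotinib, against 1, 3.2 and 1.5 with DMSO, and at most 1.9 in HCC827. In the fit without the filter this probe set was called in PC9 (0.98, adjusted p = 1.39e-04) and not in HCC827 (0.08, adjusted p = 0.783), with a called interaction (0.90, adjusted p = 0.00897).

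The class 3 genes behaved unlike each other. ALDH3B1, which oxidises lipid-derived aldehydes at membranes, had the largest change of the 6 genes when each was read from its brightest probe set. Other probe sets of CD44 changed more in PC9, by up to -2.34. Its probe set 205640_at read 409.5, 402.8 and 413.2 in PC9 with erlotinib, against 134.4, 135.4 and 116.2 with DMSO. In HCC827 it read 286, 329.8 and 334.5 with erlotinib, against 258.9, 232.9 and 245.8 with DMSO. The PC9 groups lie far apart, and the HCC827 groups are close without overlapping. The log2 change was 1.61 ± 0.08 in PC9 (3.05-fold, adjusted p = 7.62e-11) and 0.35 ± 0.08 in HCC827 (adjusted p = 0.0021). All 3 probe sets of ALDH3B1 rose in PC9, by 1.15 to 1.61, whereas in HCC827 1 of 3 rose and the values ran from -0.23 to 0.35. In HCC827 the gene's call was lost with the mean of its probe sets (0.10, adjusted p = 0.318), with the actin ratio as a covariate (0.27, adjusted p = 0.123) and without HCC827 erlotinib replicates 2 and 3 (0.21, adjusted p = 0.171), in a range of adjusted p from 9.40e-04 to 0.318.

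ALDH3A1, a class 3 enzyme abundant in cornea and in some lung tumours, had a signal above the filter level in PC9 alone. Its probe set 205623_at read 838.4, 951.3 and 865.7 in PC9 with erlotinib, against 642.1, 480.8 and 596.4 with DMSO. In HCC827 it read 3, 9.6 and 11.5 with erlotinib, against 6.1, 3 and 3.1 with DMSO, all under the filter level. The PC9 groups did not overlap and the HCC827 groups did. ALDH3A1 rose in PC9 by 0.63 ± 0.17 (adjusted p = 0.00484). With 1 in place of 8 added before the logarithm the change was again 0.63 but not called (adjusted p = 0.0992, in a range from 7.29e-05 to 0.0992). With 32 added it was 0.61. The SE of the PC9 change was 0.32 with 1, 0.17 with 8 and 0.10 with 32 added. The fit estimates 1 spread per gene from all 4 groups, the dim HCC827 arrays included. ALDH3A1 entered the test through the PC9 groups, so its value in HCC827 (0.38, adjusted p = 0.0818) compares signals under the filter level and shows neither a change nor its absence. It ranged from -0.12 to 0.73 over the alternatives and was called without HCC827 erlotinib replicate 1 (0.63, adjusted p = 0.00164) and without HCC827 DMSO replicate 1 (0.49, adjusted p = 0.045), in a range of adjusted p from 0.00164 to 0.850.

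ALDH3A2, the fatty aldehyde dehydrogenase of the endoplasmic reticulum, moved the other way. Its probe set 202053_s_at read 1541.4, 1662.0 and 1541.5 in PC9 with erlotinib, against 1955.2, 1950.1 and 1983.1 with DMSO. In HCC827 it read 607.1, 628.5 and 627.4 with erlotinib, against 662.9, 739.3 and 679.5 with DMSO. In both lines every erlotinib array lay below every DMSO array. ALDH3A2 fell by 0.31 ± 0.05 in PC9 (adjusted p = 1.07e-04) and by 0.16 ± 0.05 in HCC827 (adjusted p = 0.0246), and all 3 of its probe sets fell in both lines. The call in HCC827 was lost under 5 of 25 alternatives, among them without HCC827 DMSO replicate 2 (-0.11, adjusted p = 0.138), without HCC827 erlotinib replicate 1 (-0.14, adjusted p = 0.0687) and with the actin ratio as a covariate (adjusted p = 0.185), in a range of adjusted p from 5.72e-04 to 0.185. ALDH3A1 and ALDH3A2 lie near each other on the genome in the RefSeq annotation, with 1 protein-coding gene, SLC47A2, between them. Their changes in PC9 had opposite signs.

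CD44, the hyaluronan receptor, fell in PC9. Its brightest probe set, 212063_at, read 2009.1, 1711.4 and 1824.6 in PC9 with erlotinib, against 3184.8, 3508.1 and 3530.4 with DMSO. In HCC827 it read 2045.6, 2224.3 and 2136.1 with erlotinib, against 2302.4, 2299.7 and 2409.9 with DMSO. The groups were far apart in PC9 and adjacent, with no overlap, in HCC827. CD44 fell by 0.88 ± 0.06 in PC9 (adjusted p = 1.78e-09), to 1848 ± 150 with erlotinib, against 3408 ± 193 with DMSO. In HCC827 its value was -0.13 ± 0.06 (adjusted p = 0.076, 95% interval -0.26 to -0.01).

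The other CD44 probe sets past the filter had larger falls in PC9 than the brightest. Of 13 probe sets, 11 passed the filter and all 11 fell in PC9, with changes of -2.34 to -0.88 and a median of -1.68. Of all probe sets tested singly in PC9, 60.2% were called, 34% higher and 26.2% lower. The widest change was that of 210916_s_at, at 124 to 190 in PC9 with erlotinib and 712 to 902 with DMSO. In HCC827, 10 of the 11 fell and the brightest was not called, with values of -0.87 to -0.13 and a median of -0.41, where 48% of all probe sets were called, 26.2% higher and 21.8% lower. Read as the mean of its probe sets, CD44 in HCC827 fell by 0.39 (adjusted p = 1.41e-04). It was also called with quantile normalization (-0.16, adjusted p = 0.0381), with median centring (-0.21, adjusted p = 0.013) and with the actin ratio as a covariate (-0.25, adjusted p = 0.0299), in a range of adjusted p from 1.41e-04 to 0.223. The probe sets share their arrays and their gene and are not replicates, and which splice forms each one reads is not given in the sources used here.

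CD24 moved opposite to CD44. Its probe set 209771_x_at read 3674.5, 3847.1 and 3875.5 in PC9 with erlotinib, against 2095.4, 2310.0 and 2255.6 with DMSO. In HCC827 it read 3456.5, 3399.7 and 3803.9 with erlotinib, against 3042.7, 3064.4 and 2977.7 with DMSO. All erlotinib arrays lay above the DMSO arrays of their line. CD24 rose by 0.77 ± 0.05 in PC9 (1.71-fold, adjusted p = 1.04e-09) and by 0.23 ± 0.05 in HCC827 (adjusted p = 0.00108). All 6 CD24 probe sets rose in PC9, by 0.75 to 1.73, and 5 of 6 rose in HCC827, where values ran from 0.20 to 0.41. Set 209772_s_at, the dimmest of the 6, was at 783 ± 16.4 in PC9 with erlotinib, against 231 ± 6.81 with DMSO. The call of CD24 in HCC827 was lost with median centring (0.15, adjusted p = 0.0564) and with the actin ratio as a covariate (0.17, adjusted p = 0.0954), in a range of adjusted p from 2.67e-04 to 0.0954.

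**Figure D2:**
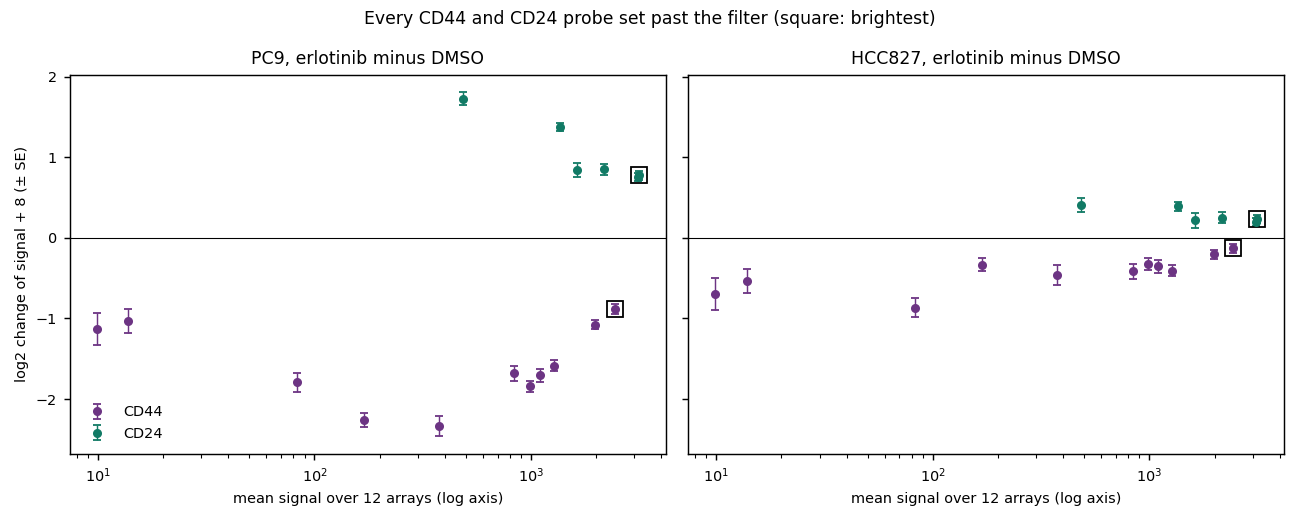
Log2 change of signal + 8 (erlotinib minus DMSO, ± SE, 3 arrays per group) of each CD44 and CD24 probe set past the filter, against its mean signal over 12 arrays on a log axis, with PC9 on the left and HCC827 on the right. Squares mark the brightest probe set of each gene: all 11 CD44 sets lie below 0 and all 6 CD24 sets above 0 in both lines, and the spread is wider in PC9.

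PROM1 and NGFR, whose products are sorted for as stem cell antigens, stayed under the filter level on every array. PROM1 read 4.3, 4.3 and 5.6 in PC9 with erlotinib, against 3, 2.3 and 3.9 with DMSO, and 4.9, 7.3 and 9.9 in HCC827 with erlotinib, against 1.1, 1.4 and 2.6 with DMSO. Without the filter, PROM1 was called in HCC827 (0.65, adjusted p = 8.52e-04) and not in PC9 (0.20, adjusted p = 0.226), again on signals under 10. NGFR lay between 0.2 and 1.8 on all 12 arrays. Its values without the filter were -0.06 in PC9 (adjusted p = 0.705) and -0.04 in HCC827 (adjusted p = 0.806). Whether cells with these transcripts are absent or too few to be seen in a culture average was not tested.

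The change under erlotinib differed between the lines for 3 of the 6 genes, where the interaction was called for 45.2% of all genes tested. The PC9 change minus the HCC827 change was 1.26 ± 0.12 for ALDH3B1 (adjusted p = 3.57e-07), 0.55 ± 0.07 for CD24 (adjusted p = 1.17e-05) and -0.75 ± 0.08 for CD44 (adjusted p = 2.42e-06). These 3 were called under all 24 alternatives. Read probe set by probe set, the interaction was called for all 3 sets of ALDH3B1, all 6 of CD24 and 9 of the 11 of CD44, where 40.3% of all probe sets were called. Of the 2 sets of ALDH1A3, the dimmer was called with a larger rise in PC9 (0.60, adjusted p = 0.0100), opposite in sign to the brightest. For ALDH1A3 it was -0.18 (adjusted p = 0.143), for ALDH3A1 0.25 (adjusted p = 0.43) and for ALDH3A2 -0.15 (adjusted p = 0.117), so a difference between lines was not shown for these. For ALDH1A3 it was called without PC9 erlotinib replicate 3 (-0.25, adjusted p = 0.0449, in a range from 0.0449 to 0.328). For ALDH3A1 it was called with 32 added (0.46, adjusted p = 0.0164, in a range from 0.0164 to 1.00). Without HCC827 erlotinib replicates 2 and 3 it was 0.75. The ALDH3A1 interaction subtracts an HCC827 value from signals under the filter level, which was 0.73 with 1 and 0.15 with 32 added. It therefore shows neither a difference between the lines nor its absence.

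**Figure D3:**
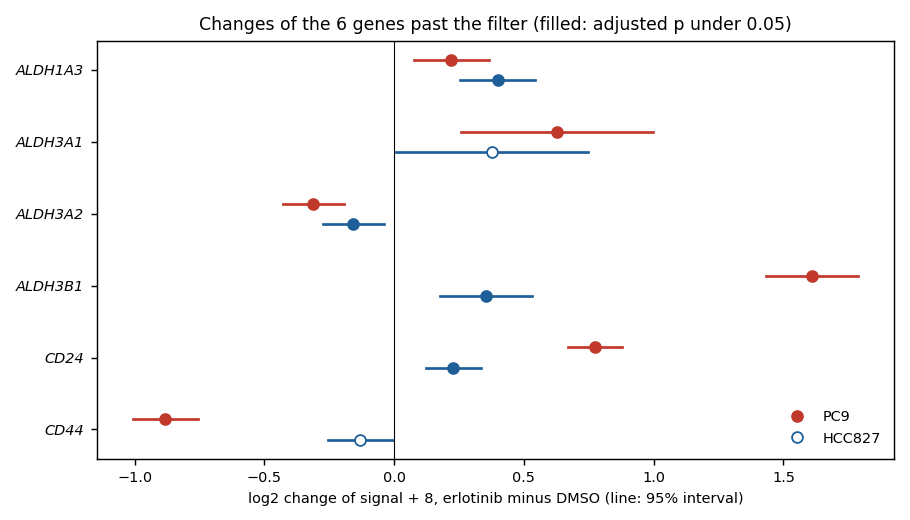
Log2 change of signal + 8 (erlotinib minus DMSO) of the 6 genes past the filter, with 95% intervals from 3 arrays per group, PC9 above HCC827 for each gene. Filled points have an adjusted p under 0.05: the widest gaps between the lines are those of ALDH3B1 (1.61 and 0.35), CD44 (-0.88 and -0.13) and CD24 (0.77 and 0.23).

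The lines already differed before any drug. With DMSO, all 6 genes differed between PC9 and HCC827, where 76.2% of all genes did. ALDH3A1 stood at 573 ± 83.1 in PC9 with DMSO, against 4.07 ± 1.76 in HCC827 with DMSO, and the size of the log2 difference was set by the constant added, since the HCC827 signal is under the filter level: it was 5.59 with 8 and ranged from 4.06 to 6.87 over the alternatives. ALDH1A3 (0.47), ALDH3A2 (1.49) and CD44 (0.54) were higher in PC9 with DMSO, and ALDH3B1 (-0.90) and CD24 (-0.45) lower, as log2 differences of PC9 minus HCC827. With erlotinib, 5 of the 6 differed, where 76.4% of all genes did. CD24, at 3799 ± 109 in PC9 with erlotinib and 3553 ± 219 in HCC827 with erlotinib, was not called (0.10, adjusted p = 0.084). Its direction depended on the processing: it was called lower in PC9 with quantile normalization (-0.11, adjusted p = 0.0238), and higher with the mean of probe sets (0.14, adjusted p = 0.0157) and without HCC827 erlotinib replicate 3 (0.15, adjusted p = 0.0119), in a range of adjusted p from 0.0119 to 0.413. ALDH3B1 was higher in PC9 than in HCC827 with erlotinib (0.36) and CD44 lower (-0.21, adjusted p = 0.00418), each with the opposite sign to its difference with DMSO. The call for CD44 with erlotinib was lost with the actin ratio as a covariate (-0.09, adjusted p = 0.317, in a range from 3.59e-05 to 0.317). Without HCC827 erlotinib replicates 2 and 3 the CD44 difference was -0.15. Of the 11 CD44 probe sets past the filter, 8 were called lower in PC9 with erlotinib and 3 were not called. Their values ran from -1.14 to 0.14, where 74.2% of all probe sets were called. The call for ALDH1A3 with erlotinib (0.29) was lost with quantile normalization (0.12, adjusted p = 0.108).

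Ordered by mean signal, the 4 groups ran differently for each gene. CD44 was highest in PC9 with DMSO, then HCC827 with DMSO, HCC827 with erlotinib and PC9 with erlotinib, with no overlap between neighbours, and the highest PC9 erlotinib array (2009.1) came close to the lowest HCC827 erlotinib array (2045.6). ALDH3B1 ran from PC9 with erlotinib through HCC827 with erlotinib and HCC827 with DMSO to PC9 with DMSO, with no overlap between neighbours. CD24 had the same order, but its erlotinib groups overlapped. ALDH1A3 was highest in PC9 with erlotinib and lowest in HCC827 with DMSO, and the groups between, PC9 with DMSO and HCC827 with erlotinib, overlapped. For ALDH3A1 and ALDH3A2 both PC9 groups lay above both HCC827 groups, and the HCC827 groups overlapped for ALDH3A1.

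Genes with the most similar pattern were named by Pearson's r of log2 signals over the 12 arrays, which share groups and scaling, as a description. The closest were MBNL2 (0.979) and PTPRS (0.971) for ALDH1A3, RARRES1 (0.998) and SP6 (0.997) for ALDH3A1, BHLHE41 (0.997) and CEBPA (0.997) for ALDH3A2, NAT1 (0.987) and DDX5 (0.984) for ALDH3B1, ARMCX6 (0.988) and SEPTIN8 (0.987) for CD24, and SPRY1 (0.980) and HIGD1A (0.976) for CD44.

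The other aldehyde dehydrogenases were read as a list of 13 genes, of which 12 were tested. Here and in the lists below, a gene was tested in both lines if at least 1 group mean passed the filter. Some values in a line therefore compare signals under the filter level. The counts of this and the following lists stand beside 36.3% higher and 28.3% lower of all genes tested in PC9, and 32.2% higher and 19.5% lower in HCC827, so that 8 of 12 called in PC9 is near the 64.7% of all genes. In PC9, 6 rose, 2 fell and 4 were not called, with a median of 0.19, and in HCC827, 8 rose, 0 fell and 4 were not called, with a median of 0.55. ALDH3B2, which lies near ALDH3B1 with 2 protein-coding genes between them, rose in PC9 to 252 with erlotinib, against 99.8 with DMSO (1.26), and in HCC827 to 18.5 with erlotinib, against 6.03 with DMSO (0.92, or 1.48 with 1 and 0.41 with 32 added). ALDH6A1, the mitochondrial methylmalonate semialdehyde dehydrogenase, rose in PC9 to 1515 with erlotinib, against 709 with DMSO (1.08). It also rose in HCC827, to 586 with erlotinib, against 427 with DMSO (0.45). ALDH1L2, the mitochondrial 10-formyltetrahydrofolate dehydrogenase, rose in HCC827 to 64.4 with erlotinib, against 4.57 with DMSO (2.52, or 3.56 with 1 and 1.40 with 32 added), and was at 4.50 in PC9 with erlotinib, against 4.17 with DMSO. ALDH2, the main acetaldehyde dehydrogenase, rose in HCC827 to 596 with erlotinib, against 313 with DMSO (0.91), and was at 361 in PC9 with erlotinib, against 366 with DMSO (adjusted p = 0.829). ALDH5A1, which oxidises succinate semialdehyde, rose in both lines, by 0.66 in PC9 and 0.84 in HCC827.

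Around retinoic acid, genes moved both ways. Of 16 tested genes of retinoid metabolism, 8 rose and 5 fell in PC9 (median 0.10, or -0.05 with median centring), and 4 rose and 6 fell in HCC827 (median -0.17). CYP1B1, a cytochrome P450 that can oxidise retinol, rose in both lines, in PC9 to 3419 with erlotinib, against 1100 with DMSO, and in HCC827 to 1490 with erlotinib, against 318 with DMSO. FABP5, which carries retinoic acid and fatty acids, fell in PC9 to 639 with erlotinib, against 1805 with DMSO. Its fall in HCC827 was smaller, to 1706 with erlotinib, against 1914 with DMSO (-0.17). CYP26A1, which degrades retinoic acid, rose in PC9 to 48.5 with erlotinib, against 18.2 with DMSO, and fell in HCC827 to 23.4 with erlotinib, against 38.9 with DMSO. CRABP2, a carrier of retinoic acid to its receptors, fell in HCC827 to 364 with erlotinib, against 793 with DMSO, and rose in PC9 to 390.0 with erlotinib, against 320.1 with DMSO (0.29, adjusted p = 0.0349), where the arrays overlapped.

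Of 10 tested receptors and targets of retinoic acid, 4 rose and 2 fell in PC9 (median 0.14, or -0.04 with quantile normalization and -0.01 with median centring), and 4 rose and 3 fell in HCC827 (median 0.13). The risers in HCC827 include RARRES1, at 7.47 with erlotinib, against 2.57 with DMSO. RARB, not called in HCC827, was at 7.47 with erlotinib, against 4.60 with DMSO. Both compare signals under the filter level there and show neither a change nor its absence. RARB, a receptor that is also a target of retinoic acid, rose in PC9 to 218 with erlotinib, against 23.7 with DMSO (2.84). PLAAT4, also called RARRES3, rose in PC9 to 288 with erlotinib, against 20.8 with DMSO (3.36), and fell in HCC827 to 872 with erlotinib, against 1182 with DMSO (-0.43). RARRES1 rose in PC9 to 2906 with erlotinib, against 1268 with DMSO (1.19). TGM2, the tissue transglutaminase, fell in both lines, in PC9 to 413 with erlotinib, against 1280 with DMSO, and in HCC827 to 111 with erlotinib, against 429.5 with DMSO. ALDH1A3 rose by 0.22 in PC9 and 0.40 in HCC827 beside these, and no relation between them was tested.

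NGFR itself did not exceed 1.8, while its ligand and signalling partners were measured. Of 15 listed neurotrophins, receptors and adaptors, 6 were tested: all 6 rose in PC9 (median 0.64; with median centring, 5 rose, median 0.50), and 4 rose in HCC827 (median 0.56). BDNF, a neurotrophin, rose in PC9 to 371 with erlotinib, against 19.2 with DMSO (3.81), and in HCC827 to 623 with erlotinib, against 349 with DMSO (0.82). MAGED1, an adaptor that binds NGFR, rose in PC9 to 920 with erlotinib, against 217 with DMSO (2.05), and in HCC827 to 483 with erlotinib, against 265 with DMSO (0.84).

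Of 17 tested genes of hyaluronan turnover and CD44 partners, 4 rose and 5 fell in PC9 (median -0.03, but 0.05 with quantile normalization, and 2 rose and 8 fell with median centring), and 6 rose and 3 fell in HCC827 (median 0.11). CEMIP, which takes part in hyaluronan breakdown, fell in PC9 to 52.1 with erlotinib, against 259 with DMSO (-2.16), and rose in HCC827 to 15.1 with erlotinib, against 4.77 with DMSO (0.86, or 1.49 with 1 and 0.36 with 32 added). MMP14, a membrane protease that cuts CD44, rose in PC9 to 77.7 with erlotinib, against 14.5 with DMSO (1.93, or 1.23 with 32 added). HMMR, a hyaluronan-binding protein of the mitotic spindle, fell in PC9 to 1079 with erlotinib, against 1850 with DMSO (-0.77). It also fell in HCC827, to 1318 with erlotinib, against 1671 with DMSO (-0.34). ESRP1, a splicing factor that acts on CD44, was at 1634 in PC9 with erlotinib, against 1666 with DMSO, and was not called in either line.

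Of 21 tested other surface markers of stem-like cells, 9 rose and 8 fell in PC9 (median -0.14), and 8 rose and 4 fell in HCC827 (median -0.01). L1CAM, an adhesion molecule, rose in both lines, in PC9 to 362 with erlotinib, against 34.8 with DMSO (3.10), and in HCC827 to 43.6 with erlotinib, against 3.03 with DMSO (2.23, or 3.52 with 1 and 1.11 with 32 added). ITGA6, the laminin receptor subunit alpha 6, fell in PC9 to 930.3 with erlotinib, against 2609 with DMSO (-1.47). It also fell in HCC827, to 1791 with erlotinib, against 2378 with DMSO (-0.41). NT5E (CD73), an ecto-nucleotidase, fell in HCC827 to 548 with erlotinib, against 1459 with DMSO (-1.40). It also fell in PC9, to 1017 with erlotinib, against 1401 with DMSO (-0.46). CD55, a complement regulator, rose in PC9 to 1206 with erlotinib, against 343 with DMSO (1.79). It also rose in HCC827, to 950 with erlotinib, against 475 with DMSO (0.99). PODXL, a sialomucin, rose in HCC827 to 654 with erlotinib, against 224 with DMSO (1.51), and fell in PC9 to 1823 with erlotinib, against 3460 with DMSO (-0.92).

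**Figure D4:**
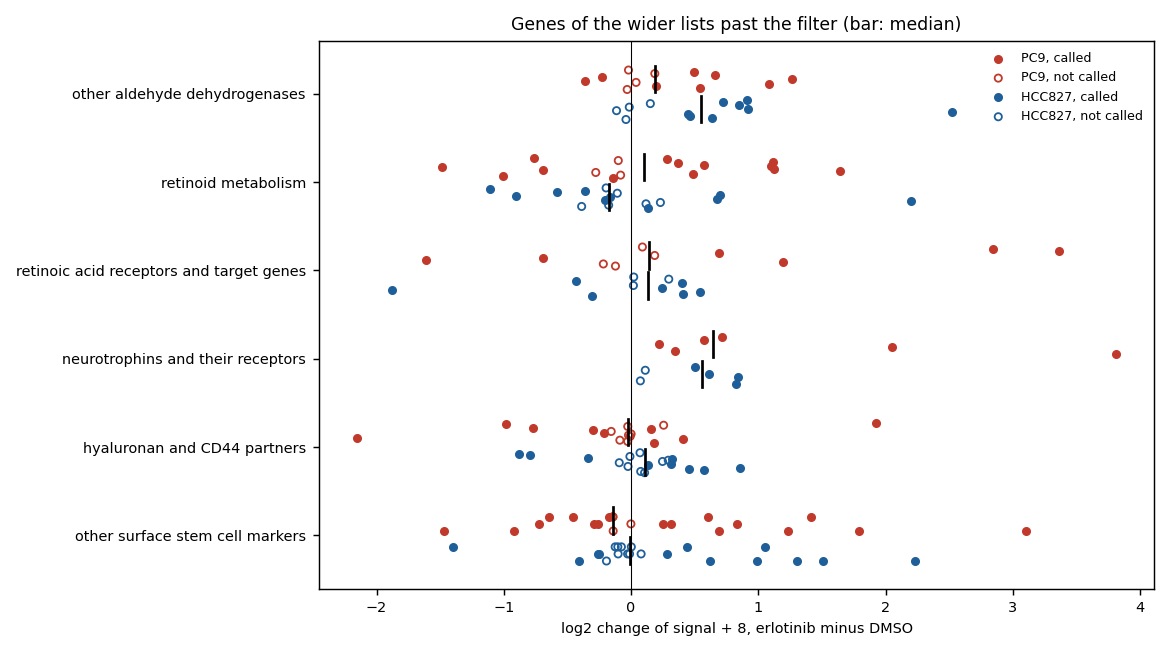
Log2 change of signal + 8 (erlotinib minus DMSO) of each gene past the filter in 6 lists, PC9 above HCC827, with filled points for an adjusted p under 0.05 and a bar at the median of each list. Medians in PC9 and HCC827 lie above 0 for the neurotrophin list (0.64 and 0.56) and the other aldehyde dehydrogenases (0.19 and 0.55). They also do for the retinoic acid receptors and targets (0.14 and 0.13). All genes of the neurotrophin list lie above 0, and the genes of every other list spread on both sides of 0.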

How the data were processed

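Amplified RNA of 12 samples was hybridised to one-colour Affymetrix arrays. Per the submitters' processing notes, the authors deposited MAS5 signals, which are linear intensity values scaled on each array. No detection calls were used here, and the number of arrays limits the precision. Of 54675 probe sets, 41091 had a single gene symbol in the platform annotation, 1801 had several and 11721 none, beside 62 controls. The brightest probe set, by the mean of log2(signal + 8) over the 12 arrays, stood for each gene. Genes with at least 1 group mean of 13 or more, the median of the table, were tested. The log2(signal + 8) values were fitted with limma 3.58.1 in R 4.3.3, with 1 mean per group, variances moderated with a trend, and Benjamini-Hochberg adjustment. Fold changes are on the log2(signal + 8) scale, which understates low genes. Alternatives were the added constant, normalization, filter, probe set choice, variance model, RNA quality, replicate block and leaving out arrays. The replicate numbers did not pair the arrays (same-number correlations of -0.255 to 0.131). Named genes were the 10 markers, the most similar genes and, of each list, the largest called changes. Other list genes in the text were chosen after their values were seen. The 10 genes and the lists were chosen with earlier results of these data known.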

Additional observations from a re-analysis of the deposited data

Results flagged for a closer look

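The change under erlotinib differed between the lines, by the interaction term of the limma fit, for 3 of the genes. The PC9 change minus the HCC827 change was 1.26 on the log2 scale for ALDH3B1, 0.55 for CD24 and -0.75 for CD44. The interaction was called for 45.2% of all genes tested.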

How the results depend on the processing

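The changes and line differences of the 6 markers past the filter were followed under the alternatives. Of these values, 698 kept direction and side of the threshold, 16 lost the call, 13 gained it and 5 changed sign. Sign changes were those of the ALDH3A1 interaction with 1 added (-0.094), of CD24 between the erlotinib groups with quantile normalization (-0.11), of the ALDH1A3 interaction with the mean of all probe sets (0.21), and of ALDH3A1 in HCC827 with the actin ratio as a covariate (-0.067) and without HCC827 erlotinib replicates 2 and 3 (-0.12). The number of markers called in HCC827 was 4, but 2 with the actin ratio and 2 without those replicates, where 4149 and 4409 of all genes were called, against 6813; in the last fit the lone erlotinib array is assumed to vary like the other groups. Leaving out 1 array gave 5 to 6 called in PC9, 3 to 5 in HCC827, 3 to 4 for the interaction, 6 with DMSO and 5 to 6 with erlotinib between lines. With the replicate block, 6 markers were called in PC9, 4 in HCC827 and 3 for the interaction, so it changed no marker count, and all genes called were 8210 in PC9, against 8525 without it.

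Median centring shifted the median of all genes by -0.15 in PC9. Of the list counts, 562 held within 1.5 times and 14 did not. With quantile normalization, retinoid metabolism had 5 higher in PC9, and the other surface markers 7 lower in HCC827. With median centring, retinoic acid receptors and targets had 4 lower in PC9, hyaluronan and CD44 partners 2 higher and 8 lower in PC9, and other aldehyde dehydrogenases 1 lower in HCC827. With the stricter filter, retinoid metabolism had 4 higher and 3 lower in PC9, and hyaluronan and CD44 partners 1 lower in HCC827. With the mean of all probe sets, other aldehyde dehydrogenases had 1 lower in PC9, and retinoic acid receptors and targets 2 higher in HCC827. Retinoic acid receptors and targets had 1 higher in HCC827 with the actin ratio and 1 without the 2 replicates, and 4 lower in PC9 without PC9 DMSO replicate 1. The causes of these shifts were not tested. Signals near the bottom of the array limit ALDH1A1, ALDH1A2, PROM1, NGFR and, in HCC827, ALDH3A1.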
